A study of Mus musculus with 2 samples.

Results

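Gene-dense windows were defined as 50 kb windows of the deposited promoter contact table that overlap 5 or more protein-coding gene spans in the GRCm38 RefSeq annotation, leaving out genes whose symbols start with Olfr, Vmn, Pcdh or Hox. Of the 43941 windows on chromosomes 1 to 19, 311 met this rule (0.708%, 15.55 Mb in all). The rule used gene positions only and no contact value. The contacts were measured by Promoter Capture Hi-C in F121-6 cells, a female hybrid 129 / Cas mouse embryonic stem cell line in which the alleles of the 129 and Cas parents can be told apart by sequence. Cells were grown with LIF on mitomycin-C-inactivated mouse embryonic fibroblasts, so some fixed nuclei may be those of feeder cells. The labels give 2 samples, replicates 1 and 2, of this single group. No other genotype or treatment is part of the data, and the comparison is between the alleles, 129 and Cas, within the same libraries. The deposited table holds 1 interaction count and 1 interaction distance for each allele and window, with both samples pooled. No spread between replicates is therefore known, and every interval below covers counting error only.

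In Hi-C, chromatin is fixed, cut and religated so that pieces of DNA lying close together in the nucleus become joined, and the joined pieces are sequenced. Promoter capture then pulls out the pieces in which at least one partner carries a baited gene promoter, here a HindIII fragment. A gene-dense stretch of a mammalian genome typically holds short genes, many of them active in most cells, with starts that lie close to each other and often point away from each other in pairs. Such stretches are known to replicate early and to lie in the active compartment of the nucleus. Tandem families of tissue-restricted genes, such as those for hair proteins, globins or receptors, form another kind of gene-dense stretch.

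Gene number ranged from 5 to 10 in these windows. There were 188 windows with 5 genes, 77 with 6, 26 with 7, 11 with 8, 6 with 9 and 3 with 10. They held 1704 distinct genes, 9.79% of the 17412 genes that overlap any window, and 51 of these genes reached into at least 2 of the windows. Genes were short. Their median length was 6.44 kb in gene-dense windows, against 23.7 kb for the genes elsewhere, and gene spans covered a median of 75.7% of a window. Genes named only by a model or clone number made up 114 of the 1704. Without them 42 windows would fall below 5 genes, and 2 windows held no other kind of gene. The windows were unevenly spread: chromosomes 7, 11 and 17 carried 56, 43 and 28 of them, together 40.8% of gene-dense windows against 14.6% of all windows, and chromosome 12 carried 1.

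Promoter sequence was available from RefSeq (GRCm38.p6) for 1395 of the 1704 genes (81.9%), as 250 bases before to 50 bases after the gene start, and 1199 of these starts lay inside the gene-dense windows. The promoters shown come from windows described below. Lrch4 and Sap25 lie in the window with the largest ratio towards 129, and H2aw and H3f4 in the one with the largest ratio towards Cas. A promoter each was added, after the values were seen, from the window with the highest count (Krtap3-2, the one there with the fewest CG pairs) and from a window with the most genes (Vegfb, the one there with the most). Each is written 5′ to 3′ on the strand of its gene, with CG dinucleotides in capitals. Lrch4 lies at chr5:137628873-137629172 on the plus strand. Sap25 lies at chr5:137641223-137641522 on the plus strand. H2aw lies at chr11:58954435-58954734 on the plus strand. H3f4 lies at chr11:58961461-58961760 on the plus strand. Krtap3-2 lies at chr11:99556804-99557103 on the minus strand. Vegfb lies at chr19:6987602-6987901 on the minus strand.
Lrch4: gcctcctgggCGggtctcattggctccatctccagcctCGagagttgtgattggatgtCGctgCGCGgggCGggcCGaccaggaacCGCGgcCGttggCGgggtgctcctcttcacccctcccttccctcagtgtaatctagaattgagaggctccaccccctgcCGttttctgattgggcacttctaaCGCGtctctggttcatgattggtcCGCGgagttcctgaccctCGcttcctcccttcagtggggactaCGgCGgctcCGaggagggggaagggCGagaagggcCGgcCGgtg
Sap25: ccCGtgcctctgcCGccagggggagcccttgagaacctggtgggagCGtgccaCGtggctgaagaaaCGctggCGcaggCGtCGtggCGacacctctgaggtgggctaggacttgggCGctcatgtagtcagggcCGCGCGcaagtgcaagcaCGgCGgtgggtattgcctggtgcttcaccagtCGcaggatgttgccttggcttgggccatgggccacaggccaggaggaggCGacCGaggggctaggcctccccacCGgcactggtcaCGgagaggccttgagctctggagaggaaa
H2aw: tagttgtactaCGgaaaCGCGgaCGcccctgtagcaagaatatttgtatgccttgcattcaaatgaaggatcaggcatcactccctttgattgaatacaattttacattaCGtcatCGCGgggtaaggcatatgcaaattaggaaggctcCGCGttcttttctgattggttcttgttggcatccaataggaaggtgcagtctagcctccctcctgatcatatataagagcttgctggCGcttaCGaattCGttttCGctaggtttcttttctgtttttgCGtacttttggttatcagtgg
H3f4: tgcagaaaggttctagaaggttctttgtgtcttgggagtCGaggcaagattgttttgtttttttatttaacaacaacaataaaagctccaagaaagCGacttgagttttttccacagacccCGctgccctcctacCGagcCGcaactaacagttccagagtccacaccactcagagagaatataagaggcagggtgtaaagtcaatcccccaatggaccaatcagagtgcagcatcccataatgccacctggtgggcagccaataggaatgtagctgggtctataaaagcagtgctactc
Krtap3-2: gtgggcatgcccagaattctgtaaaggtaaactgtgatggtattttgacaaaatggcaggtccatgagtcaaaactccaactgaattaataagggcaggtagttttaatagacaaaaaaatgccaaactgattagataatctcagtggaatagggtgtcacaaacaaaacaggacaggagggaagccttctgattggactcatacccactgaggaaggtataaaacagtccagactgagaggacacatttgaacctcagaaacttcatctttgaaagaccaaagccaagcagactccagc
Vegfb: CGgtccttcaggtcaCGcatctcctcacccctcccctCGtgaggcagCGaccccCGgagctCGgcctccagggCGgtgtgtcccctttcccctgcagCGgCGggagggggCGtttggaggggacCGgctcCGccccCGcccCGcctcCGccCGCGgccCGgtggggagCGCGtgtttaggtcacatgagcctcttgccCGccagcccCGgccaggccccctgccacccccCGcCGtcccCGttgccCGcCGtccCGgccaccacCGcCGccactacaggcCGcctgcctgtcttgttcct

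The number of CG dinucleotides ran from 0 in Krtap3-2 to 31 in Vegfb. Both were picked by this number within their windows, so the spread is not a result. Vegfb, a vascular endothelial growth factor gene, had 31, more than 84.7% of all 15166 promoters in the RefSeq table. Lrch4, which encodes a leucine-rich repeat protein, had 23, and Sap25, for a protein of the Sin3 corepressor complex, had 20. The histone genes H2aw and H3f4 had 14 and 5. Krtap3-2, for a protein of the hair fibre, had 0, and both it and H3f4 held the letters TATAAA.

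As a group, the promoters of gene-dense windows were close to promoters in general. A promoter was called CpG-rich here if its GC content was 50% or more and its observed over expected CG ratio at least 0.6. By this measure 50.0% of the 1199 promoters were CpG-rich, against 50.9% of all 15166 in the table. TATAAA, searched on both strands, stood in 13.4% of them, against 11.4% of all. The Sp1-type GC box, GGGCGG on either strand, stood in 50.2%, against 51.2% of all, and the HindIII site AAGCTT in 6.84%, against 6.38% of all. A match of letters is a description and does not show a bound site.

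Gene-dense windows had many contacts on both alleles. They held 1279673 interactions on 129 and 980563 on Cas, 2.56% of all interactions in 0.708% of the windows. The median gene-dense window had 3686 interactions on 129 (quartiles 2664 to 5075.5) and 2878 on Cas (1945 to 3929.5). Windows with 2 to 4 genes had medians of 2308 on 129 and 1735 on Cas. Those with 1 gene had 722 and 527, and those with no gene 328 on 129 and 230 on Cas. The summed count of both alleles was 6.82 times that of windows with 0 to 4 genes by the medians. Baits lie at promoters, and contact frequency per promoter was not measured. Within gene-dense windows, the number of gene starts of known strand and the summed count were only weakly related (r = 0.10, rho = 0.09, 310 windows). No start of known strand lay in 14 of these windows, so starts are undercounted in that relation.

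**Figure D1:**
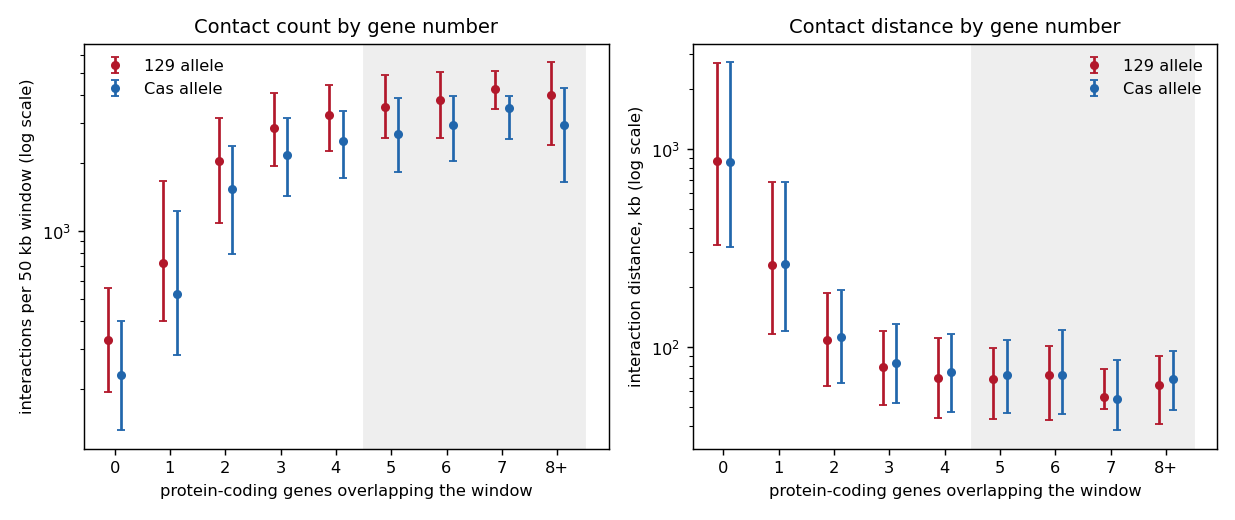
Interactions per 50 kb window (left) and interaction distance in kb (right), both on log scales, by the number of protein-coding genes overlapping the window. Points are medians and bars are quartiles, red for the 129 allele and blue for the Cas allele, and the shaded part marks gene-dense windows. Median counts on 129 lay at 328 with no gene and at 3531.5 with 5 genes, and median distances on 129 at 871 kb and 69 kb.

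Counts and distances changed little across the limit of 5 genes. Windows with 4 genes, just outside it, had medians of 3273 interactions on 129 and 2513 on Cas, and windows with 5 genes, just inside, had 3531.5 and 2699. Within gene-dense windows, the median was 3824 on 129 and 2954 on Cas with 6 genes, 4256 and 3513 with 7, and 3990.5 and 2950 with 8 or more. Across the windows, gene number and summed count were related only weakly (Pearson's r = 0.09, Spearman's rho = 0.08, 310 windows of the same libraries). The share of a window that gene spans cover went with a lower count (r = -0.33, rho = -0.22, same windows).

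Interactions from gene-dense windows were short. The deposited distance, whose unit was read as bp, had a median of 68 kb for 129 and 70 kb for Cas. Windows with 2 to 4 genes had medians of 97.5 kb for 129 and 102 kb for Cas, those with 1 gene 258 kb for 129 and 263 kb for Cas, and those with no gene 871 kb for 129 and 857 kb for Cas. The differences were far smaller among windows whose summed count lay between the quartiles of gene-dense windows. There, median 129 distances were 66 kb with 5 or more genes, 72.5 kb with 2 to 4, 82 kb with 1 and 97 kb with none. Median Cas distances, in the same order, were 69, 75, 86 and 92.75 kb. The longest values in gene-dense windows were 423 kb on 129 and 411 kb on Cas, both in the kallikrein window that holds Klk1, Klk1b3, Klk1b4 and Klk1b5. Windows with more interactions had shorter distances (r = -0.36, rho = -0.37 for summed count against the 129 distance, 310 windows).

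Counts fell off and distances lengthened away from the gene-dense windows. Adjoining gene-dense windows formed 251 runs. At 50 kb outward from a run, the median was 2731 interactions on 129 and 2053.5 on Cas, and at 1000 kb it was 1463.5 and 1066.5. Median distances at 50 kb outward were 75 kb for 129 and 79 kb for Cas, and at 1000 kb they were 145 kb for 129 and 152 kb for Cas. The median gene number per window fell as well, from 5 inside to 2 at 50 kb and 1 at 1000 kb. The part of position apart from gene number was not tested. The 129 share varied less over the same span: it was 56.6% inside, 56.3% at 50 kb and 57.2% at 1000 kb.

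**Figure D2:**
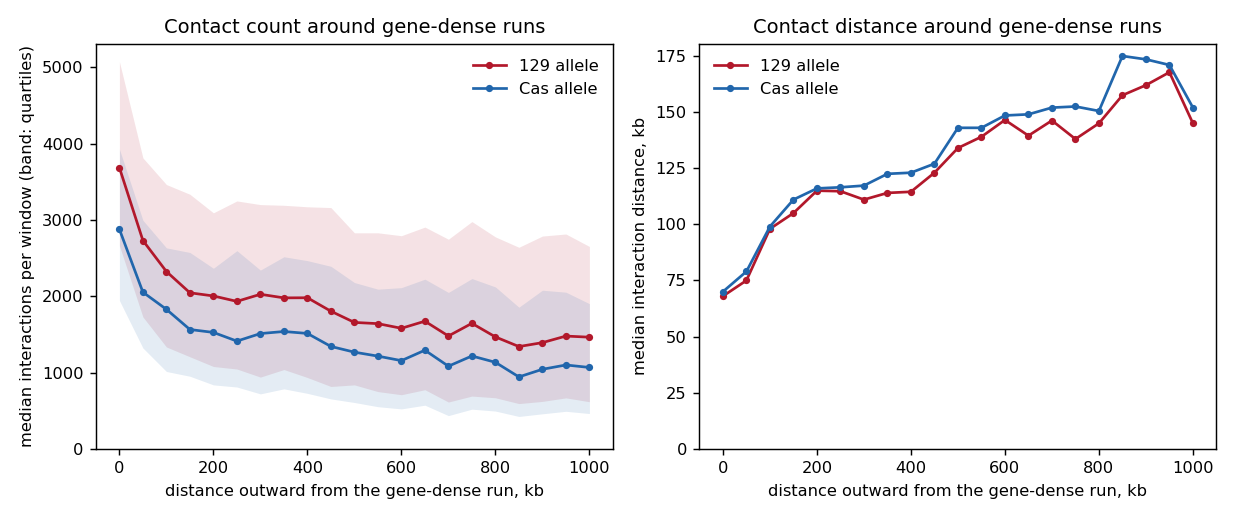
Median interactions per window with quartile bands (left) and median interaction distance in kb (right) in gene-dense windows, at 0 kb, and in windows up to 1000 kb outward from each run of them. Red is the 129 allele and blue the Cas allele. Counts on 129 were 3686 inside and 1463.5 at 1000 kb, with Cas below 129 at every step.

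The 129 allele held 56.6% of the interactions of gene-dense windows (exact Clopper-Pearson 95% interval 56.55% to 56.68%), against 57.6% in windows with 0 to 4 genes (57.59% to 57.61%). The share was 57.1% with 2 to 4 genes, 57.6% with 1 gene and 58.4% with no gene. Among gene-dense windows it did not follow gene number: it was 56.7% with 5 genes, 56.9% with 6, 55.2% with 7 and 56.8% with 8 or more. In raw counts 286 gene-dense windows had more interactions on 129 and 24 had more on Cas. To set windows against the genome-wide tilt, a centred log2 ratio was taken as log2((129 + 1)/(Cas + 1)) minus its median over all tested windows. Its median in gene-dense windows was -0.08, with 118 windows above 0 and 192 below. Windows are not replicates of each other, so the difference in share was not tested.

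The lower 129 share was seen chromosome by chromosome. It lay below that of the other windows of the same chromosome on 17 of 19 chromosomes and above on 2, chromosomes 1 and 5. On chromosome 4 it was 53.2% in gene-dense windows and 57.1% in the others. Chromosome 8 had 53.0% and 56.0%, and chromosome 9 had 54.2% and 57.1%. On chromosome 10, where 129 takes a larger share throughout, the values were 60.5% and 61.1%. Chromosome 7, which holds the most gene-dense windows, had 57.46% and 57.52%. Of the 11 chromosomes with 10 or more gene-dense windows, 10 were below and 1 above.

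**Figure D3:**
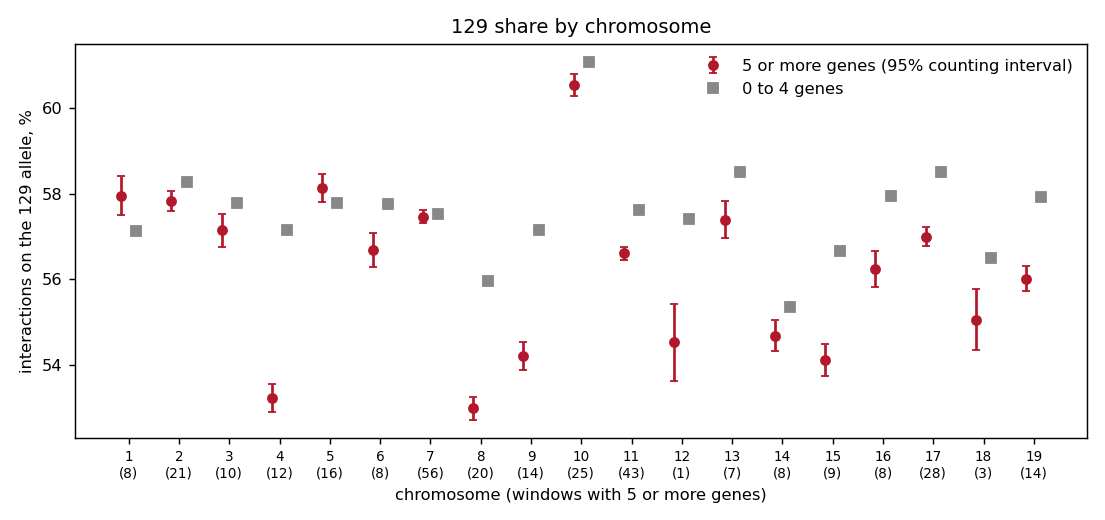
Share of interactions on the 129 allele, in percent, for gene-dense windows (red, with exact 95% counting intervals) and windows with 0 to 4 genes (grey squares) on each chromosome, with the number of gene-dense windows in brackets. Gene-dense windows lay between 53.0% on chromosome 8 and 60.5% on chromosome 10, and below the grey square on 17 of 19 chromosomes.

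The allele ratio varied less among gene-dense windows than among others. The SD of the centred log2 ratio was 0.27 over 310 gene-dense windows, against 0.36 in windows with 2 to 4 genes, 0.41 with 1 gene and 0.51 with no gene. Counting error alone gives a typical SD of 0.036 in gene-dense windows and 0.124 in windows with no gene. Much of the difference went with depth, and little was left against windows with 2 to 4 genes. Among windows whose summed count lay between the quartiles of gene-dense windows, the SD was 0.29 with 5 or more genes, 0.30 with 2 to 4, 0.33 with 1 and 0.34 with none. A ratio of 2-fold or more after centring was seen in 3 gene-dense windows (0.968%), against 3.32% of all tested windows. Within the same count range it was seen in 1.29% of windows with 5 or more genes, 1.10% with 2 to 4, 1.97% with 1 and 1.56% with none.

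No gene-dense window was called as different between alleles once the spread between windows was taken into account. The two-sided beta-binomial test against the autosomal 129 share (57.6%), with a single overdispersion over all windows and Benjamini-Hochberg adjustment over 43762 windows, called 0 of 310 gene-dense windows at an adjusted p of 0.05, against 0.944% of all tested windows. At an unadjusted p under 0.05 it had 8 (2.58%), against 5.51% of all. These shares do not compare windows of like depth, because the overdispersion of 0.0165 did not hold at all counts. Estimated by decile of the summed count, it was 0.0088 in the highest, with 200 gene-dense windows, and 0.0485 in the lowest, with 0. The single value is thus wide for windows in the highest decile. Counting error alone was exceeded far more often: the exact binomial test called 208 of 310 gene-dense windows (67.1%), against 51.4% of all. Relative to the autosomal share of 57.6% on 129, 63 were higher on 129 (20.3%, against 27.1% of all windows) and 145 were higher on Cas (46.8%, against 24.3% of all). In raw counts most of these 145 still had more on 129, since 24 windows in all had more on Cas. That test takes each interaction as independent, and deeper windows pass it more easily.

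**Figure D4:**
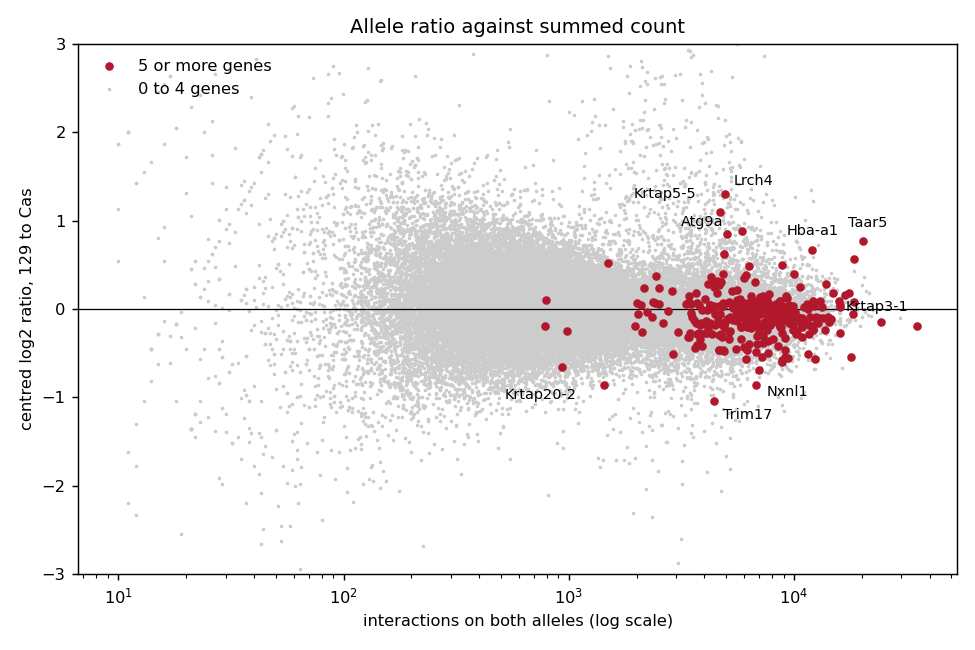
Centred log2 ratio of interactions, 129 to Cas, against the interactions on both alleles (log scale) for 310 gene-dense windows (red) and windows with 0 to 4 genes (grey), with some windows labelled by a gene. Gene-dense windows lay between -1.04 (Trim17) and 1.30 (Lrch4), and 93 grey windows beyond a ratio of 3 either way are not drawn.

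As none was called, the windows at both ends of the ratio were named after their values were seen, 6 in each direction, and are given as a description, 5 of those towards Cas with their values. Lrch4 and Sap25 lie in the window furthest towards 129, at chr5:137600001-137650000, with Mospd3, Pcolce (an enhancer of procollagen processing), Fbxo24 and Irs3 (an insulin receptor substrate). Counts there were 3807 for 129 and 1127 for Cas. The 129 share was 77.2% (75.96% to 78.32%) and the centred log2 ratio 1.30, with a beta-binomial adjusted p of 0.085. The window before it had 63.5% on 129 and the one after it 54.9%, so the high share did not extend at that size to either side.

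Next came the window of the hair protein genes Krtap5-3 and Krtap5-5 at chr7:142200001-142250000. Counts were 3507 for 129 and 1197 for Cas, with a ratio of 1.10 and a beta-binomial adjusted p of 0.27. Its neighbours had 60.0% and 60.9% on 129, against 74.6% inside. At chr1:75150001-75200000, the window of Zfand2b, the porphyrin transporter gene Abcb6, the autophagy gene Atg9a, Ankzf1 and Glb1l had 4227 on 129 and 1675 on Cas (ratio 0.88). Its neighbour on one side, gene-dense as well, with Tuba4a, Dnajb2 and Ptprn, had a ratio of 0.01. All 3 are single windows whose neighbours lay nearer to the genome-wide share.

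Smarcb1, a core subunit gene of the SWI/SNF remodeller, shared its window at chr10:75900001-75950000 with Mmp11, Chchd10 and Vpreb3. There 3584 interactions lay on 129 and 1451 on Cas (ratio 0.85), over 33 kb for 129 and 67 kb for Cas. The trace amine receptor genes Taar3 to Taar7b at chr10:23950001-24000000 had 14104 on 129 and 6060 on Cas (ratio 0.77), with 23 kb on 129 and 38 kb on Cas. Their neighbours, which hold further Taar genes, had ratios of 0.21 and 0.31. On chromosome 10 the 129 share is higher throughout. Centred on the median of that chromosome, the ratio was 0.62 for the Smarcb1 window and 0.53 for the Taar window. The alpha-globin window at chr11:32250001-32300000 holds the embryonic Hba-x, the adult Hba-a1 and Hba-a2, and part of Nprl3, whose introns carry enhancers of these genes. It had 8223 on 129 and 3764 on Cas (ratio 0.67), with 76 kb on 129 and 195 kb on Cas. In the gene-dense window before it, with Mpg, Rhbdf1 and Snrnp25, the ratio was 0.02.

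Towards Cas, the most extreme window was that of Trim17 and Trim11, both ubiquitin ligase genes, with the histone genes H2aw and H3f4, at chr11:58950001-59000000. Counts were 1767 for 129 and 2661 for Cas. The 129 share was 39.9% (38.46% to 41.37%) and the ratio -1.04, with a beta-binomial adjusted p of 0.31. Its 129 contacts spanned 214 kb and its Cas contacts 105 kb. The window before it, with Zfp39, Btnl10 and Rnf187, had a ratio of -0.57, so here a neighbour leaned the same way.

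Tmem221, Nxnl1, the fatty acid transporter gene Slc27a1, Pgls and Niban3 at chr8:71550001-71600000 had 2907 on 129 and 3860 on Cas (ratio -0.86). The neighbours on both sides had -0.47 and -0.57. The window of Krtap20-2 and 7 model genes at chr16:89200001-89250000 had 617 on 129 and 816 on Cas (ratio -0.86), a low count for a gene-dense window. Both windows lay on chromosomes with gene-dense shares below 57.6%, as most chromosomes had. Centred on the median of its own chromosome, the Slc27a1 window had a ratio of -0.75 and the Krtap20-2 window -0.88.

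Ugt1a genes, which encode enzymes that conjugate glucuronic acid and share their last exons, filled the window at chr1:88150001-88200000. It had 432 on 129 and 498 on Cas (ratio -0.66), while the window before it, with 6 of the same genes, had 470 on 129 and 320 on Cas (ratio 0.10). The histone genes H4f16 and H2aj, with the splicing factor gene Wbp11, Smco3 and Art4, lay at chr6:136800001-136850000, with 4205 on 129 and 4647 on Cas (ratio -0.60). Its 4 nearest windows ranged from -0.49 to -0.73, so the lean towards Cas there was not limited to the gene-dense window.

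Distance differed between alleles in either direction. The 129 distance was the longer one in 147 gene-dense windows and the Cas distance in 156, while 7 had equal values, and the median log2 ratio was -0.004. The SD of that log2 ratio was 0.44, against 0.89 over all windows, but among windows within the count quartiles of gene-dense windows it was 0.46 with 5 or more genes, 0.48 with 2 to 4, 0.53 with 1 and 0.56 with none. A difference of 2-fold or more favoured 129 in 5 windows and Cas in 11, together 5.16%, against 17.1% of all windows. Within the same count range these shares were 5.16% with 5 or more genes, 5.55% with 2 to 4, 6.64% with 1 and 8.17% with none. No error is known for a distance, so none of these was tested. Distances of the alleles followed each other closely (r = 0.87, rho = 0.88, 310 windows).

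The largest differences towards longer contacts on 129 were in 3 windows. Rad9b, the retromer gene Vps29, Fam216a, Gpn3 and the Arp2/3 subunit gene Arpc3 at chr5:122350001-122400000 had 87 kb on 129 and 37 kb on Cas, with a count ratio of -0.012. The bitter taste receptor genes Tas2r104 to Tas2r107 and Tas2r114 at chr6:131650001-131700000 had 42 kb on 129 and 19 kb on Cas. The Krtap20-2 window had 189 kb on 129 and 88.5 kb on Cas. Towards longer contacts on Cas, Pspn, Gtf2f1, Khsrp, Slc25a41 and Slc25a23 at chr17:57000001-57050000 had 60 kb on 129 and 185 kb on Cas. Skiv2l, Nelfe, the complement genes Cfb and C2, Zbtb12 and the histone methyltransferase gene Ehmt2 at chr17:34850001-34900000 had 56 kb on 129 and 170.5 kb on Cas. Tbc1d10b, the muscle myosin light chain gene Mylpf, Septin1, Zfp553 and Zfp771 at chr7:127200001-127250000 had 37 kb on 129 and 109 kb on Cas. Counts in these last 3 windows had ratios of 0.31, 0.14 and 0.03, and their 129 shares were 63.0%, 60.2% and 58.4%, against 57.6% over all autosomes.

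Where the count ratio was large, the allele with more interactions tended to have the shorter distance. Of 9 windows with a ratio of 0.5 or more, 7 had the longer distance on Cas and 2 on 129, with median distances of 57 kb on 129 and 70 kb on Cas. Of 15 windows with a ratio of -0.5 or less, 10 had the longer distance on 129, 3 on Cas and 2 were equal, with medians of 49 kb for 129 and 38 kb for Cas. Among these 15 are the 3 adjoining windows at chr8:84950001-85100000, which are not separate cases. Across the 310 windows r was -0.36 and rho -0.29. Both ratios come from the same interactions of a window and are not independent measures.

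Adjoining gene-dense windows formed runs. Of 251 runs, 207 were single windows, 34 had 2, 6 had 3, 3 had 4 and 1 had 6. The longest, chr11:69750001-70050000, held 31 genes, among them Polr2a (the largest subunit of RNA polymerase II), Eif5a, Gabarap, Dvl2 and Dlg4. It had 25585 interactions on 129 and 18555 on Cas, with ratios between -0.12 and 0.19 and window distances of 33 to 87.5 kb for 129 and 49 to 77 kb for Cas. At chr17:35050001-35250000, 24 genes from Clic1 past the Ly6g6 genes to Ltb, Tnf and Lta, the tumour necrosis factor genes, had 16136 on 129 and 12468 on Cas, with ratios between -0.11 and -0.003. At chr19:8750001-8950000, 22 genes including Nxf1, Taf6l, Polr2g and Mta2 had 16120 on 129 and 11368 on Cas, with ratios between -0.06 and 0.12. A run of equal length at chr7:45050001-45250000, with Rpl13a, Flt3l and Tead2, had 15695 on 129 and 10763 on Cas, with ratios between -0.13 and 0.39. Over the 60 adjoining pairs, r between the ratios was 0.32 and rho 0.25, and 38 pairs had the same sign. Over 41992 adjoining pairs of other windows r was 0.24. Of the 60 pairs, 46 shared a gene, so they are not independent. One shorter run was picked out after its values were seen: the 3 windows at chr8:84950001-85100000, with Junb, Prdx2, Rnaseh2a, Hook2, Tnpo2 and Man2b1, had 10818 on 129 and 11572 on Cas and ratios between -0.56 and -0.54.

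The 3 windows with 10 genes had ratios between -0.22 and 0.04, where the quartiles of gene-dense windows are -0.20 and 0.05. At chr19:6950001-7000000, with the cell death gene Bad, Plcb3, Fkbp2, Vegfb and the integrin activator gene Fermt3, 6570 interactions were on 129 and 5593 on Cas (ratio -0.22). At chr19:6050001-6100000, with Syvn1, Mrpl49, Fau, Vps51 and the cohesin regulator gene Cdca5, there were 4376 on 129 and 3098 on Cas (ratio 0.04). At chr9:107550001-107600000, with Rassf1, the hyaluronidase genes Hyal1, Hyal2 and Hyal3, and Sema3b, there were 4106 on 129 and 3314 on Cas (ratio -0.14). Their 129 distances lay between 34.5 and 42 kb and their Cas distances between 26 and 41 kb.

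The highest counts were in tandem families of genes for hair proteins and receptors. Krtap3-2 and the other Krtap3 and Krtap1 genes at chr11:99550001-99600000 had 19300 interactions on 129 and 16044 on Cas (ratio -0.19), and the adjoining window with Krtap2-4 and Krtap4 genes had 13429 and 10852 (ratio -0.15). The Taar window described above came next. Near the Krtap windows, high counts were not limited to gene-dense windows. The window of Krt23 alone at chr11:99450001-99500000 had 9628 on 129 and 7647 on Cas. One with no gene at chr11:99700001-99750000 had 5988 and 5270, against medians of 328 and 230 for windows with no gene. The lowest was a window at chr8:55350001-55400000 with 5 model genes only and 0 interactions on either allele. It was left out of every ratio, and the window after it had 6 on 129 and 42 on Cas. The other low windows were chr16:89250001-89300000, with 9 model genes, which had 430 on 129 and 358 on Cas, and the first Ugt1a window. The sources used here do not say how reads that match several copies of a gene were treated.

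CpG-rich promoters were also counted per window, which the rule did not use. The 43 windows with promoter sequence but no CpG-rich promoter had a 129 share of 57.3% and an SD of ratios of 0.37. The 151 windows with 1 or 2 had 56.9% and 0.27, the 92 with 3 or 4 had 56.0% and 0.22, and the 11 with 5 or more had 55.7% and 0.14. In the same order, median 129 distances were 84.5, 66, 66.5 and 51 kb, and median Cas distances 99.5, 70, 66 and 47 kb. Medians of the summed count were 6769, 6786, 5991 and 7324. The differences between these groups were not tested.

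Gene lists were followed through the windows as a description. A count, ratio or distance given with a gene is that of its whole window, which holds other genes too. Among genes used in most cells, 17 of 67 cytosolic ribosomal protein genes lay in 16 gene-dense windows. The ratio was above 0 in 8 of these and below in 8, with a median of -0.008, and ranged from -0.46 to 0.27. The median of all gene-dense windows was -0.08, and that of all tested windows was 0 by construction. The windows furthest from 0 were those of Rpl18 (3072 on 129 and 3095 on Cas) and Rps25 (2769 on 129 and 2770 on Cas). In both, the alleles had nearly equal raw counts. The beta-binomial test called 0 windows in this list and in every other, and the exact binomial test called 10 of these 16, a share near the 67.1% of all gene-dense windows.

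Mitochondrial ribosomal protein genes gave 11 of 71 genes in 11 windows, with a median ratio of -0.09, 3 above 0 and 8 below. Counts in the window of Mrpl43 were 3484 on 129 and 3335 on Cas (ratio -0.39). In that of Mrpl18 they were 2736 on 129 and 1555 on Cas (ratio 0.36). Proteasome genes gave 8 of 37 in 6 windows, with a median of -0.11. Psmb5 and Psmb11, for catalytic subunits, shared a window with 5661 on 129 and 5890 on Cas (ratio -0.51). The immunoproteasome genes Psmb8 and Psmb9, with the peptide transporter gene Tap1, lay in a window with 3095 on 129 and 1720 on Cas (ratio 0.39). For complex I of the respiratory chain, 5 of 36 genes lay in 5 windows (median 0.02), and that of Ndufb10 had 5540 on 129 and 3666 on Cas (ratio 0.14). RNA polymerase subunit genes gave 5 of 24 in 5 windows, between -0.20 (Polr2j) and 0.12 (Polr2g). Of 33 DNA replication genes, 2 lay in gene-dense windows. That of Mcm7, a helicase subunit, had 4626 on 129 and 3311 on Cas (ratio 0.03). That of Pold1, a polymerase, had 4218 and 2483 (ratio 0.31).

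**Figure D5:**
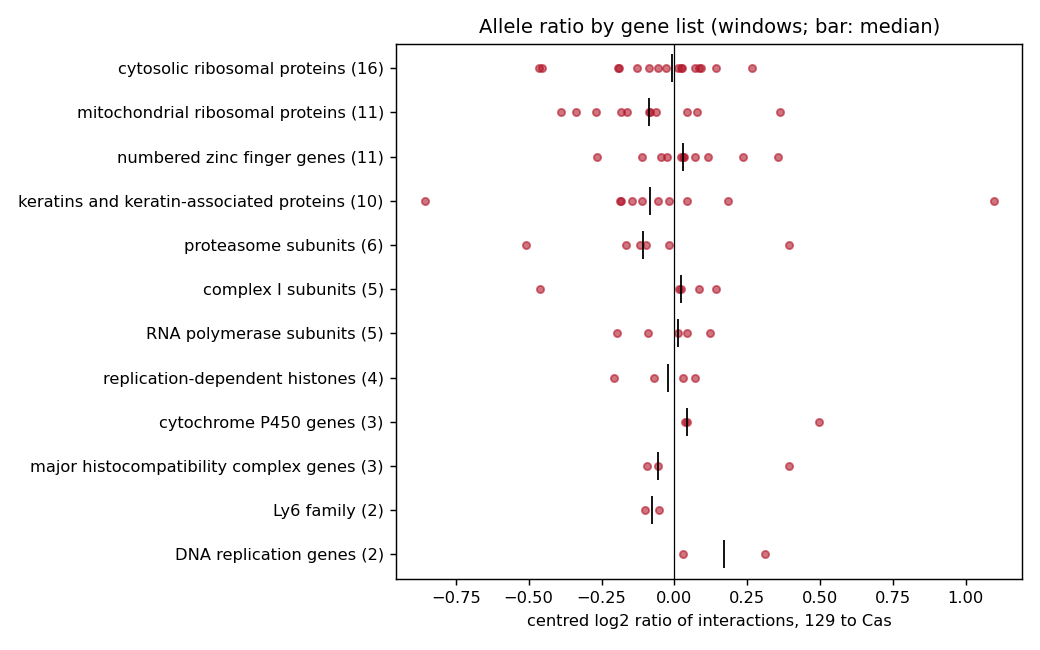
Centred log2 ratio of interactions, 129 to Cas, for gene-dense windows that hold genes of each list, for lists with 2 or more windows (number in brackets). Points are windows and vertical bars are medians. Windows of keratin and keratin-associated genes spread from -0.86 to 1.10, and those of cytosolic ribosomal protein genes from -0.46 to 0.27.

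Clustered families behaved variously. Replication-dependent histones, whose genes lie in tight clusters, gave the highest share of a list: 23 of 34 genes in 4 windows. Their median distance was short, 20.5 kb on 129 and 15.25 kb on Cas, though not in every window. The ratio ranged from -0.21 to 0.07. H2bc13, H2ac13, H3c10, H2bc14 and H4c11 shared a window with 3167 on 129 and 2670 on Cas, over 136.5 kb on 129 and 74 kb on Cas. H2ac12, H2bc12, H4c9, H2ac11 and H2bc11 shared one with 3408 and 2614, over 25 kb and 14 kb. Keratins and keratin-associated genes gave 29 of 109 genes in 10 windows (median -0.08), with the Krtap5 and Krtap20-2 windows above at the ends. Major histocompatibility complex genes gave 4 of 30 in 3 windows. H2-DMb1 and H2-DMb2 lie beside Psmb9 (ratio 0.39), and the window of H2-M5 had 1982 on 129 and 1546 on Cas (ratio -0.10). The Ly6 family gave 6 of 21 genes in the 2 windows of the chromosome 17 run (-0.10 and -0.05). The chemokine genes Cxcl5, Cxcl3 and Cxcl15 shared a window with 6420 on 129 and 4611 on Cas (ratio 0.02).

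Numbered zinc finger genes gave 16 of 356 genes in 11 windows, with a median ratio of 0.03. The window of Zfp428 had 3816 on 129 and 2180 on Cas (ratio 0.35), and that of Zfp593 had 2017 and 1771 (ratio -0.27). Cytochrome P450 genes gave 2 of 96 in 3 windows. That of Cyp2t4 had 5827 on 129 and 3019 on Cas (ratio 0.50). One with Cyp27b1, which makes active vitamin D, had 4639 and 3289 (ratio 0.04). That last value was -0.19 when set against the share of chromosome 10. The glutathione transferase genes Gstp1 and Gstp2 shared a window with 3879 on 129 and 2791 on Cas (ratio 0.02). None of 48 defensin and 58 serpin genes lay in a gene-dense window.

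Developmental genes are read against the 9.79% of all genes that lie in gene-dense windows, with no test of the difference. Of 22 pluripotency genes only Pou5f1, which encodes the stem cell factor Oct4, lay in one, at chr17:35500001-35550000 with Tcf19, Cchcr1, Psors1c2 and Cdsn. The count of this window was 3534 for 129 and 2512 for Cas (ratio 0.04), and its distance 31 kb for 129 and 36 kb for Cas. Against the share of chromosome 17 the ratio was -0.027. Of 23 regulators of mesoderm and endoderm only Tbx6 lay in a gene-dense window. That window had 3933 on 129 and 2698 on Cas (ratio 0.09), with 89 kb on 129 and 105 kb on Cas. None of 39 imprinted genes, 27 neural transcription factor genes and 22 fibroblast matrix genes lay in a gene-dense window. The fibroblast list marks loci of the feeder cell type, and since contacts do not measure expression, the share of feeder nuclei was not tested.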

How the data were processed

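Promoter Capture Hi-C libraries were made from F121-6 cells in 2 samples. Per the labels' protocols, 2% formaldehyde was used for fixing and HindIII for cutting, ligation took place inside nuclei, 22225 promoters were baited, and paired reads of 100 bp were taken. The submitters' processing notes name Bowtie2 and mm10. The sources used here do not say how reads were assigned to alleles, filtered or merged, which bears on the level of the 129 share. Whole-number interaction counts per allele and window, not normalised, were deposited. They sum to 50842396 on 129 and 37470557 on Cas over autosomes. A deposited distance per allele was read as bp, and whether it is a mean or a median is not stated. Its columns are named alike in both samples' labels, so they were taken as pooled. Starts were raised by 1.

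The 43762 windows that reached a summed count of 10 were tested with the beta-binomial test, whose overdispersion of 0.0165 was estimated over all of them and equals an SD between windows of 6.35 points in the 129 share. Interactions are not independent molecules, and an interaction may be counted at both its ends. Distances were compared where each allele had 10 or more interactions. Gene spans came from RefSeq, and strand was known only for genes with a promoter sequence, so gene starts are undercounted. The gene-dense windows, the 21 gene lists and the tests were chosen with earlier results of these data known, and the lists were trimmed of genes caught by symbol alone after values were seen. Windows were named by gene number, count, distance ratio, run length, and the 2 largest ratios per list. The rule also asked for the 6 largest ratios per direction among called windows, and as none was called, the largest of all were used. Some genes and the results that need them are not reported here. Scripts were tested on simulated data. Alternatives were the exact binomial test, overdispersion per decile of count, the share of the own chromosome, other count minimums, pseudocounts and thresholds, and other memberships. Tests used scipy 1.17.1 under Python 3.11.15, tables pandas 2.3.3 and numpy 2.4.6, and figures matplotlib 3.10.9.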

Additional observations from a re-analysis of the deposited data

How the results depend on the processing

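The count of gene-dense windows called was 0 with the beta-binomial test, also with an overdispersion per decile of the summed count, the share of the own chromosome, a summed count of 50 or more, an adjusted p of 0.01, membership by gene starts, or named genes only. It was 208 with the exact binomial test, which leaves out the spread between windows. The 129 share was 56.6% on summed counts, 56.5% as the median of window shares, 56.4% without chromosome 10, 56.8% for the 98 windows with 5 or more gene starts and 56.7% for the 269 with 5 or more named genes, a membership added after seeing the data. Each of these is below 57.6%. The fold in summed count over other windows was 6.82, and 7.29 by gene starts, which changes the windows on both sides. Of 49 named windows, the binomial test moved 36 past the threshold, and the share of the own chromosome turned 2 round, Cyp27b1 to -0.19 and Pou5f1 to -0.027, because chromosomes 10 and 17 have higher 129 shares than the autosomes together. No replicate could be left out. No paired analysis was possible because no column belongs to a single sample.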
